A study of Mus musculus with 3 samples.

Results

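The genes described here encode the aminoacyl-tRNA synthetases of the mouse, the enzymes that join each amino acid to its transfer RNA (tRNA) before protein synthesis. Of 21887 protein-coding genes on the nuclear chromosomes, 36 were taken by name: 20 genes for enzymes of the cytosol and 16 for enzymes of the mitochondrion, whose symbols end in 2. Each gene was given every peak that overlapped its span in the RefSeq annotation of mm10 or the 5 kb on either side. Peaks came from chromatin immunoprecipitation followed by sequencing (ChIP-seq) in primary mouse embryonic fibroblasts, wild-type cells of strain C57BL/6 isolated from embryos at E13.5. All cells had been grown for 24 hours after plating and then starved of amino acids (AAD medium) for 3 hours, and no fed cells were among the samples. The groups were 1 library with an ATF4 antibody (Santa Cruz, C-20) and 1 with an antiserum to the C-terminus of CEBPG. A library with a GFP antibody from the same starved cells was not analysed here. The CEBPG list held 25419 peaks and the ATF4 list 2642. With 1 library per antibody no value has a replicate error and no test was run. Peak lists hold no measure of gene expression, so the fibroblast label was not checked against marker genes.

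ATF4 is a basic leucine zipper (bZIP) transcription factor whose translation rises when uncharged tRNAs activate the kinase GCN2. It binds DNA as a dimer, and C/EBP proteins such as CEBPG are among its partners. Such a heterodimer recognises a composite site in which an ATF half-site lies beside a C/EBP half-site. In animals most cytosolic and mitochondrial synthetases are products of separate nuclear genes. Gars (glycyl) and Kars (lysyl) are exceptions, since each encodes the enzyme of both compartments.

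Genes for cytosolic synthetases carried CEBPG peaks more often than those for mitochondrial synthetases, and their peaks were stronger. A CEBPG peak was present at 15 of 20 cytosolic genes (75.0%) and at 3 of 16 mitochondrial genes (18.8%), where 29.9% of all protein-coding genes had one by the same rule. At 16 genes the mitochondrial share is not read as different from that of all genes, and its order against them turned within 20 kb (8 of 16, against 43.7% of all genes) and at some score minimums, such as 200 (6.25% against 4.37%). The score of a peak, a number the authors' peak caller attached to it, starts at 40 in both lists and ranks peaks within a list. At a score of 100 or more all 15 cytosolic genes remained, as did 1 mitochondrial gene, against 7.24% of all genes. At 500 or more there were 11 cytosolic genes and 0 mitochondrial genes (1.79% of all genes), and at 1000 or more 5 cytosolic genes (0.818% of all genes). The median of the highest score per gene was 766.9 over the 15 cytosolic genes with a peak. It was 75.77 over the 3 mitochondrial genes and 52.76 over the 6541 protein-coding genes with a peak. Gene spans had a median of 27.0 kb (7.9 to 70.9 kb) for cytosolic genes, 25.1 kb (2.9 to 420.2 kb) for mitochondrial genes and 17.2 kb for all genes, and the part of gene length in these counts was not tested. The difference in counts is a description of these genes in 1 library, with no test, because genes are not replicates of a condition.

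**Figure D1:**
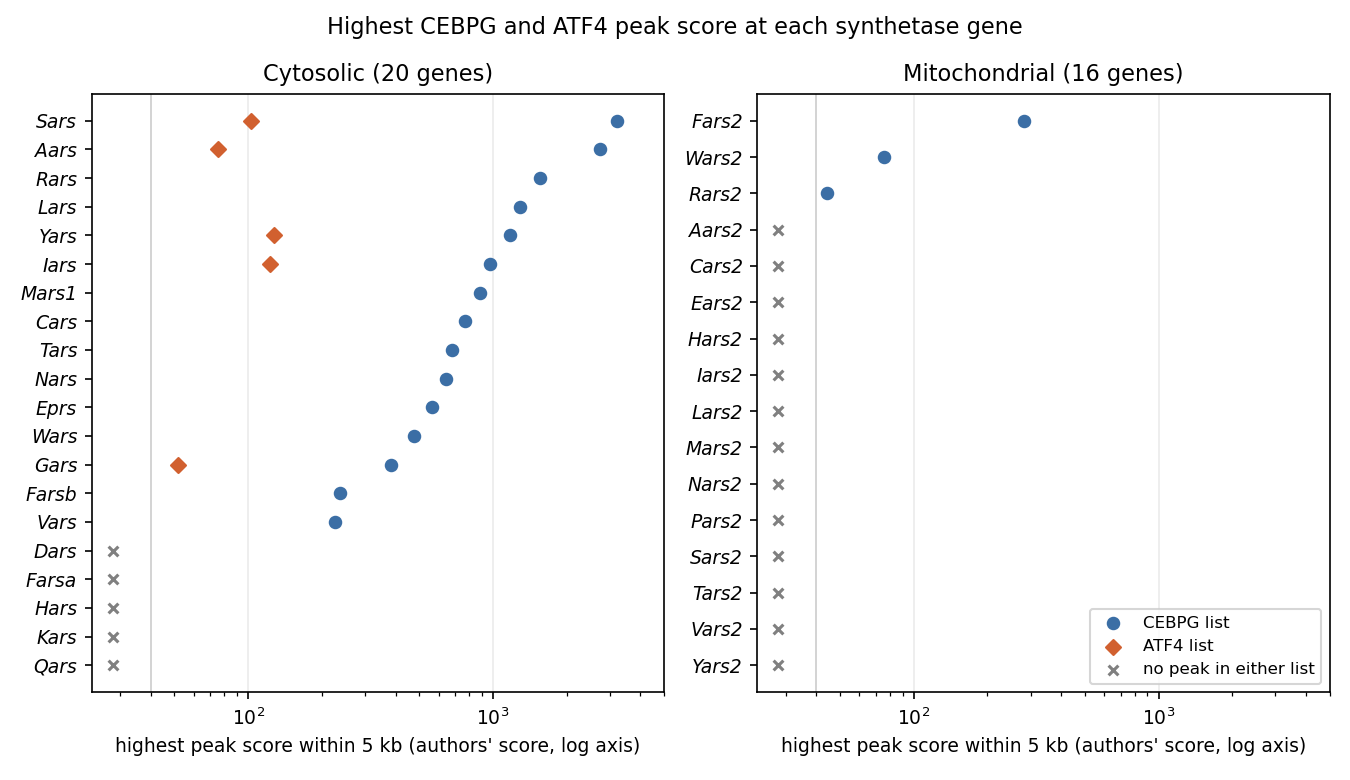
Highest score of a CEBPG peak (circles) and of an ATF4 peak (diamonds) within 5 kb of each synthetase gene, on a log axis, with cytosolic genes on the left and mitochondrial genes on the right. Crosses mark genes with no peak in either list, and the vertical line marks the score 40 at which both lists begin. The 15 marked cytosolic genes lie between 227.24 and 3205.83, and the 3 marked mitochondrial genes between 44.06 and 282.55.

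**Figure D2:**
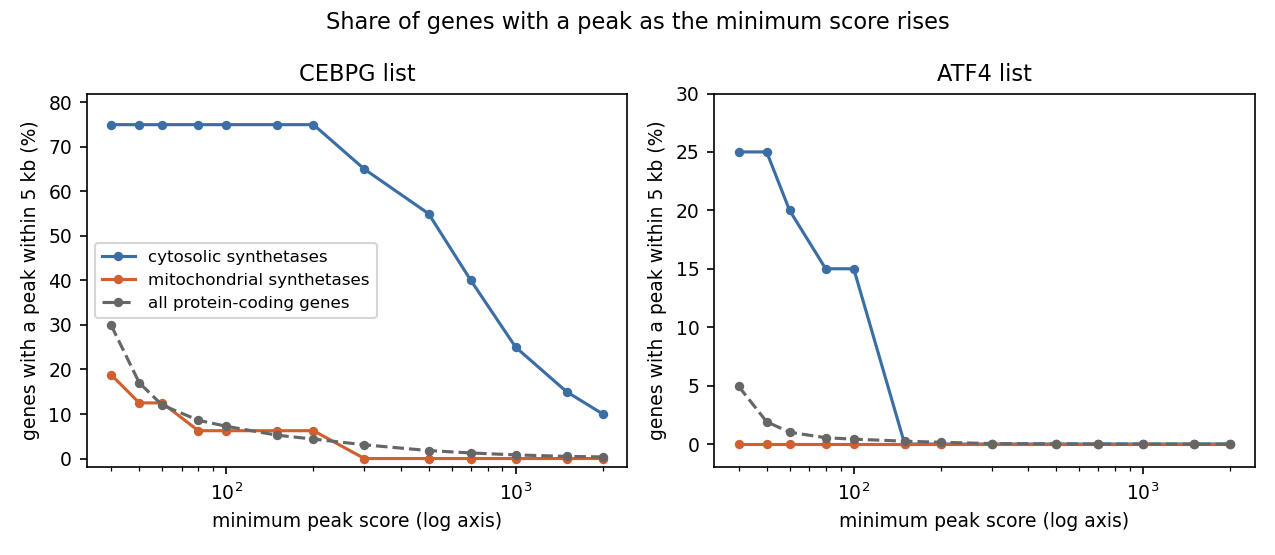
Percentage of cytosolic synthetase genes (20), mitochondrial synthetase genes (16) and all protein-coding genes (21887) with a CEBPG peak (left) or an ATF4 peak (right) as the minimum score on the log x axis is raised. The cytosolic share stays at 75.0% up to a minimum of 200 in the CEBPG list and is 15.0% at a minimum of 100 in the ATF4 list, while the mitochondrial line of the CEBPG list lies near that of all genes and crosses it.

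ATF4 peaks were found at 5 cytosolic genes, Yars, Iars, Sars, Aars and Gars, and at 0 of 16 mitochondrial genes, where 4.94% of all genes had one. At 16 genes a count of 0 is not read as different from that share. At a score of 100 or more the cytosolic count was 3, Yars, Iars and Sars, against 0.42% of all genes. Each of the 5 ATF4 peaks lay wholly within a CEBPG peak. Peaks of both factors that overlapped by at least 1 bp were thus at 5 of the 20 cytosolic genes, beside 1.13% of all genes. Of the 1082 protein-coding genes with an ATF4 peak, 247 had overlapping peaks by this rule. The centres of the overlapping peaks were between 3 bp and 98 bp apart.

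Yars, the tyrosyl-tRNA synthetase gene, had the highest ATF4 score of the family, 127.88, which ranked 95 among the 2642 ATF4 peaks. The ATF4 peak (chr4:129189749-129190067, 319 bp) was centred 5 bp after the start of the gene and lay inside a CEBPG peak of 1168.96. Iars, the isoleucyl-tRNA synthetase gene, had an ATF4 peak of 122.81 (chr13:49681955-49682355) centred 25 bp after its start, inside a CEBPG peak of 974.79. Both sites are thus at the start of transcription, and both also lie within 5 kb of another gene, S100pbp beside Yars and Nol8 beside Iars.

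Aars, the alanyl-tRNA synthetase gene, had a CEBPG score of 2724.51, the second highest of the family, which 40 protein-coding genes reached (Aars included). Its ATF4 peak, with a score of 75.35, lay at the RefSeq start. That start lies well inside the annotated span, so a rule based on the ends of the span alone would place these peaks in the interior of the gene. The neighbour Ddx19b also came within 5 kb of them.

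At Sars and Gars the ATF4 peaks lay inside the gene, around 1 kb past the start. Sars, the seryl-tRNA synthetase gene, had a CEBPG peak of 3205.83 (chr3:108443890-108444515), centred 1057 bp after the start, with an ATF4 peak of 102.68 in it. The score is the highest number in the CEBPG list, but 38 peaks share the score 3100 and 4 lie above it, so scores at this level appear capped and do not rank the strongest peaks. Gars had a pair of CEBPG peaks, 272.35 centred 68 bp before the start and 383.36 centred 944 bp after it. Its ATF4 peak, 51.78 (chr6:55038826-55039058), was the weakest of the 5 and lay on the inner CEBPG peak, with 3 bp between centres. The CEBPG peak at the Gars start had no ATF4 peak.

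Beside the 247 protein-coding genes with overlapping peaks, the synthetases were spread over the CEBPG scores but held none of the highest ATF4 scores. The median ATF4 score of these 247 genes was 71.37 and their median CEBPG score 894.37. Yars, Iars, Sars and Aars lay above the first value, and Gars lay below both. The ATF4 score of Yars was reached by 60 of the 247 genes, that of Iars by 68, Sars by 81, Aars by 116 and Gars by 188. Each gene is counted with itself, and neighbouring genes can share a pair of peaks. Ddx19b, Nol8 and S100pbp are counted with the same peaks as Aars, Iars and Yars. The CEBPG score of Aars was reached by 39 of the 247 genes, of which 27 stood at the shared score of 3100, and Sars, above that score, was not ranked.

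**Figure D3:**
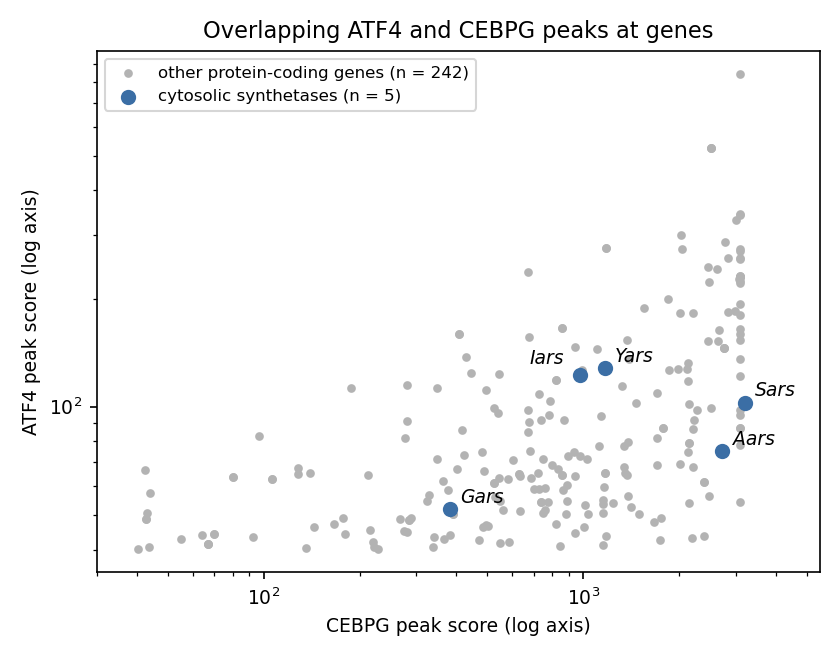
ATF4 score against CEBPG score of overlapping peaks at 247 protein-coding genes, both on log axes, with the pair of the highest ATF4 score for each gene. The 5 synthetase genes are named and the 242 other genes are in grey. Among those in grey, Ddx19b, Nol8 and S100pbp share the peaks, and so the points, of Aars, Iars and Yars. Sars and Aars stand at the right, at CEBPG scores of 3205.83 and 2724.51, with ATF4 scores of 102.68 and 75.35 in the middle of the cloud.

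CEBPG alone was found at 10 cytosolic genes. The strongest were Rars (arginyl), with 1553.26, and Lars (leucyl), with 1284.92. Both scores were above those of Yars, Iars and Gars, which had ATF4 peaks. Mars1 (methionyl) had 885.2, Cars (cysteinyl) 766.9, Tars (threonyl) 683.29, Nars (asparaginyl) 645.18 and Eprs, which encodes a fused glutamyl and prolyl enzyme, 563.07. Lower scores stood at Wars (tryptophanyl, 476.2), Farsb (the beta subunit of the phenylalanyl enzyme, 238.31) and Vars (valyl, 227.24). The nearest ATF4 peak was 125.1 kb away from Tars, 198.9 kb from Lars and 264.9 kb from Rars, so these genes had none in a wide surrounding either.

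Set beside all genes in the same band of highest CEBPG score, the share of cytosolic synthetases with an ATF4 peak was higher in 2 bands and lower in 2. With 2 to 6 cytosolic genes in a band, none of these shares is read as different from that of all genes. Both cytosolic genes at 2000 or more (Sars and Aars) had an ATF4 peak, as did 92.4% of the 79 protein-coding genes there. From 1000 to 2000 it was 1 of 3 (Yars, but not Rars or Lars), beside 53.0% of 100 genes. From 500 to 1000 it was 1 of 6 (Iars), beside 36.3% of 212 genes, and from 100 to 500 it was 1 of 4 (Gars), beside 14.1% of 1193 genes. A gene without an ATF4 peak is one below the authors' threshold in a library of unknown depth, and binding there cannot be called absent.

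The remaining cytosolic genes, Dars (aspartyl), Farsa (the alpha subunit of the phenylalanyl enzyme), Hars (histidyl), Kars and Qars (glutaminyl), had no peak in either list. The phenylalanyl enzyme thus had a CEBPG peak at the gene of its beta subunit and none at that of its alpha subunit. Of the genes for both compartments, Gars had peaks of both factors and Kars of neither.

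By structural class, CEBPG peaks stood at 9 of the 10 class I cytosolic genes, with Qars the exception, and at 6 of the 10 class II genes. ATF4 peaks stood at 2 class I genes (Iars and Yars) and 3 class II genes (Aars, Gars and Sars). Several synthetases are held in the multisynthetase complex of the cytosol. CEBPG peaks were at 5 of its 8 enzyme genes (Eprs, Iars, Lars, Mars1 and Rars, but not Dars, Kars or Qars) and at 10 of the 12 cytosolic genes outside it. Iars was the 1 complex gene with an ATF4 peak. With groups this small the counts are given as they are, and no order between classes is drawn from them.

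The highest CEBPG peak of most cytosolic genes lay near a start or an end of the gene. RefSeq starts were at hand for 9 of the 15 genes. For Cars, Lars, Nars, Rars, Vars and Wars the distance was taken to the nearer end of the span, which may be either end of the gene. The highest peak was centred 10 bp before the start of Tars, 34 bp after that of Iars, 103 bp after that of Yars, 109 bp after that of Mars1 and 127 bp before that of Aars. At Cars, Nars and Lars it lay 52 bp, 58 bp and 213 bp from an end. A further group of peaks was centred inside the gene, 352 bp past the start at Farsb, 907 bp at Eprs, 944 bp at Gars and 1057 bp at Sars. Wars (750 bp), Vars (1045 bp) and Rars (2051 bp) had theirs inside the span at those distances from an end. In all, 12 of 15 cytosolic genes had their highest peak within 1 kb. By the same rule it was 11.6% of the 6541 protein-coding genes with a CEBPG peak and 16.9% of the 1584 genes with a score of 100 or more. The mix of measures differed, since a start was used for 9 of the 15, 5184 of the 6541 and 1251 of the 1584 genes. The nearer end is the easier measure to meet, so these shares are not strictly alike.

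**Figure D4:**
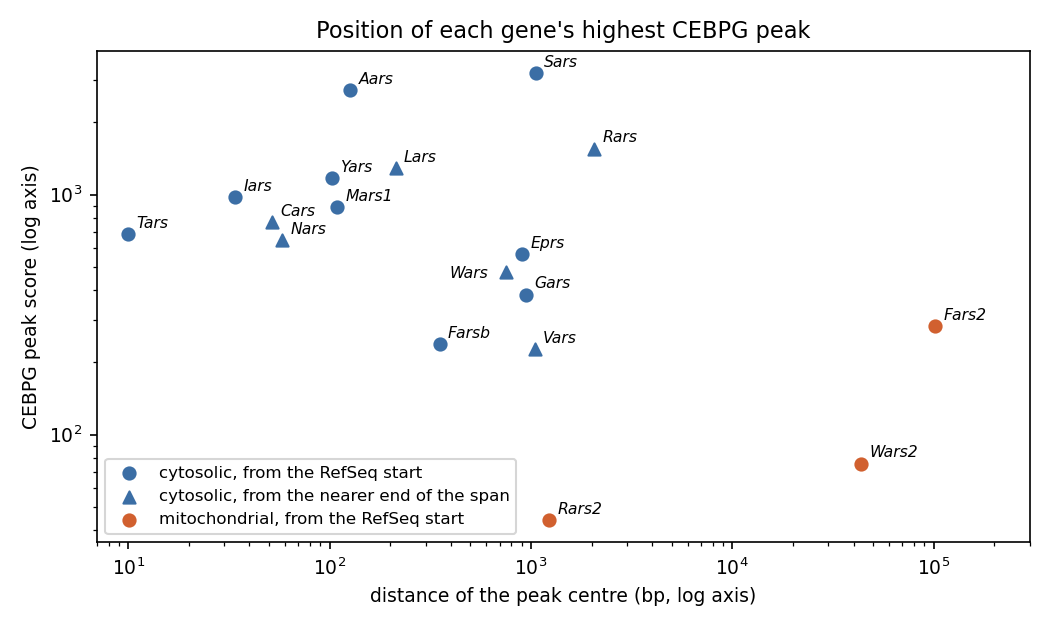
Score of the highest CEBPG peak of each synthetase gene against the distance of its centre from the RefSeq start (circles) or, where no start was at hand, from the nearer end of the gene span (triangles), both on log axes without regard to side. The 15 cytosolic genes (blue) lie between 10 bp and 2051 bp, and the 3 mitochondrial genes (orange) at 1228 bp, 43586 bp and 101998 bp.

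Beyond the highest peak of each gene, the cytosolic genes had 14 further CEBPG peaks at 8 genes. Of these, 2 scored 100 or more, the one at the Gars start and one of 115.72 within Nars, 1130 bp from one of its ends. The other 12 scored between 40.73 and 72.3. Some of these weak peaks lay nearer to another gene, such as 1 of 57.15 in the Mars1 window that was nearest Ddit3, the gene for CHOP.

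The mitochondrial genes with a CEBPG peak had it far from the start or at a low score, which was also the common state of all genes. Of the 6541 protein-coding genes with a CEBPG peak, 5710 had the highest one more than 1100 bp from a start or end. The median highest score of those 6541 genes was 52.76. Fars2 (phenylalanyl) held 5 peaks in a span of 420.2 kb, the longest of the family, and the highest, 282.55, was centred 101998 bp past the start. Wars2 (tryptophanyl) had peaks of 75.77 and 40.63, the stronger 43586 bp past the start. The peak of Rars2 (arginyl), 44.06, lay 1228 bp before its start and nearer to the gene Orc3. No peak of either factor was listed at Aars2, Cars2, Ears2, Hars2, Iars2, Lars2, Mars2, Nars2, Pars2, Sars2, Tars2, Vars2 or Yars2. The closest ATF4 peak to any mitochondrial gene was 22.2 kb from Lars2 (score 50.91).

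Pairs of genes for the same amino acid showed the same order. In 14 of 16 such pairs the cytosolic gene had the higher CEBPG score. Seryl enzymes were the widest apart, with 3205.83 at Sars and no peak at Sars2, and alanyl enzymes followed, with 2724.51 at Aars and none at Aars2. The exceptions were the phenylalanyl enzymes, with 282.55 at Fars2 and 238.31 at Farsb, and the histidyl enzymes, where neither gene had a peak. Hars and Hars2 are neighbours whose spans touch, so neither factor had a listed peak at the ends they share. Eprs enters 2 of the pairs, with Ears2 and with Pars2.

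The bases under the peaks were read for genes whose promoter window, 250 bases before to 50 after the start, is in the RefSeq promoter table (GRCm38.p6, the same build). It held 13 of the 20 cytosolic genes and 14 of the 16 mitochondrial genes. CEBPG peaks overlapped the windows of 6 cytosolic genes, Aars, Gars, Iars, Mars1, Tars and Yars, and of 0 mitochondrial genes (1.64% of 17492 protein-coding genes). ATF4 peaks overlapped those of Aars, Iars and Yars (0.189% of all). The composite ATF and C/EBP site was searched as TGATGNAA on both strands, where N is any base. It was present in 4 of the 12 cytosolic windows searched (Gars, Iars, Tars and Yars) and in 0 of 14 mitochondrial windows, against 4.13% of all windows. All 4 of these windows were under a CEBPG peak, and Mars1 was the 1 other searched cytosolic window under such a peak. Among all genes the site was in 23.7% of 287 windows under a CEBPG peak and in 3.81% of 17205 others. At 14 windows the mitochondrial counts of 0 are not read as different from the shares of all windows.

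The composite sites are shown because each lies within 42 bp of the centre of a peak. Each line gives 30 bases, 5′ to 3′ on the strand of the gene, with the match in capitals (it reads TGATGNAA on the opposite strand except at Yars):
Iars, chr13:49682126-49682155, plus strand: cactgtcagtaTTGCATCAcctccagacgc
Tars, chr15:11399655-11399684, minus strand: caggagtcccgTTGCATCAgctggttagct
Gars, chr6:55037960-55037989, plus strand: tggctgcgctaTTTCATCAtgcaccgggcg
Yars, chr4:129189895-129189924, plus strand: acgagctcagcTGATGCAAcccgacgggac

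The 8 letters at Iars and Tars were identical, and Yars had the same 8 letters on the other strand. Gars differed from them in the base that N stands for. At Iars it began 7 bp after the start, 14 bp from the ATF4 centre and 23 bp from the CEBPG centre. At Yars it began 3 bp after the start and lay 2 bp from the ATF4 centre, with the CEBPG centre 96 bp off. At Tars it began 15 bp before the start, 1 bp from the centre of a CEBPG peak with no ATF4 peak. At Gars it began 30 bp before the start, 42 bp from the centre of the CEBPG peak at the start, the one that no ATF4 peak overlapped. ATF4 peaks overlapped the windows of Iars and Yars but not those of Tars and Gars. All 4 windows were listed because they hold the letters, so they cannot show whether the letters go with an ATF4 peak. Among all genes the site was in 45.5% of the 33 windows under an ATF4 peak.

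The 250 bases before the start of Gars and Tars, whose sites lie there, are given for context. Mars1 is given as a window without the letters that a CEBPG peak partly overlaps. That peak was centred 109 bp after the start, past the window, so the bases at its centre were not searched. Each line reads 5′ to 3′ on the strand of the gene, with the match in capitals:
Gars, chr6:55037751-55038000, plus strand: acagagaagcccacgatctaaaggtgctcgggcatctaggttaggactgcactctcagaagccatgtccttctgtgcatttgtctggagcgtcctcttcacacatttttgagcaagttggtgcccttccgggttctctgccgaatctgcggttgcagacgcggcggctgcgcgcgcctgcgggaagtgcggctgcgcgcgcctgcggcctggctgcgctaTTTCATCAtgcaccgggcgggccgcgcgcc
Tars, chr15:11399659-11399908, minus strand: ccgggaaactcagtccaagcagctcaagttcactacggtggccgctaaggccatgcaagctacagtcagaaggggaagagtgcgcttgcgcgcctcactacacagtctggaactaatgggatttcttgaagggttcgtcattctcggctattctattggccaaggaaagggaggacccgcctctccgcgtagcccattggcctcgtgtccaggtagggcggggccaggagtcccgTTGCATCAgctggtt
Mars1, chr10:127311787-127312036, minus strand: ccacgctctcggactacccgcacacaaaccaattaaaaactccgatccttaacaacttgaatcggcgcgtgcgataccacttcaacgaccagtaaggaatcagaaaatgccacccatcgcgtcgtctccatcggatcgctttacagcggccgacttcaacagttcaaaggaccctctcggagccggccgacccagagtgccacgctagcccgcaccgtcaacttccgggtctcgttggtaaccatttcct

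The same windows were searched for other bZIP sites. The CRE palindrome, searched as TGACGTCA, was in 0 cytosolic and 0 mitochondrial windows, beside 2.54% of all. A C/EBP site, searched as TTGCNNAA on both strands, was in 2 of 12 cytosolic windows (Gars and Qars) and 1 of 14 mitochondrial windows (Rars2), beside 11.7% of all, which is no difference to read at these numbers. The match at Qars and that at Rars2 were under no peak. That at Gars began 143 bp before the start, 71 bp from the centre of the CEBPG peak of 272.35, and is in small letters in the sequence above. Among all genes the C/EBP letters were in 26.1% of 287 windows under a CEBPG peak and in 11.4% of 17205 others. No 8-letter word matches both the composite search and either of these. A match describes letters in a window and does not show that a factor was bound there. The peaks inside Sars, Gars, Eprs and Farsb lay outside the windows and were not searched, nor was the part of the Mars1 peak past its window.

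Genes that serve tRNA charging beside the synthetases carried CEBPG peaks that were mostly weak, as at all genes, and no listed ATF4 peak. There were 19 such genes. They include Tarsl2, a relative of Tars that was not among the 20 cytosolic genes. Tarsl2 had no peak in either list. Of the 19, 9 had a CEBPG peak (47.4%, beside 29.9% of all genes) and 2 reached a score of 100 (10.5%, beside 7.24%). ATF4 peaks were at 0 of the 19 (4.94% of all genes). At 19 genes none of these shares, of any CEBPG peak, of a score of 100 or of ATF4, is read as different from that of all genes. Xpot, the gene for the exportin that carries tRNAs out of the nucleus, had the highest, 335.29, centred 319 bp past its start. Gatb, for a subunit of the amidotransferase that makes glutaminyl-tRNA in mitochondria, had 136.88, centred 2536 bp outside the gene. The scaffold genes of the multisynthetase complex, Aimp1, Aimp2 and Eef1e1, had no peak of either factor. The other 7 genes with a peak had scores between 41.23 and 55.38, and the median of the 9 genes, 47.0, was below that of all genes with a peak (52.76). None of the 16 accessory genes with a promoter window had a peak over it or the composite letters in it.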

How the data were processed

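The deposited files are 2 peak lists, ATF4 and CEBPG, each from 1 library sequenced as 36 bp reads from 1 end, per the labels' protocols. Trimmomatic, BWA, MACS 1.4.2 and HOMER are named with the build mm10, per the submitters' processing notes, without settings, and whether GFP was the control is not stated there. The score is the number that ends each deposited peak name. Its scale is not stated, it was used within a list only, and the deposited files hold no read counts, so depth is unknown. Start and end positions are the authors', written here 1-based. Gene spans, starts and promoter windows are RefSeq's for GRCm38.p6, and all 36 members matched by symbol. In 718 overlapping promoter windows on opposite strands the letters were the same after reverse-complementing. Of the 13 cytosolic windows 12 were searched for motifs, and the sequence of 1 is not reported here. Counting was done in Python 3.11.15 with pandas 2.3.3 and tested on simulated data. Genes given in full were those with an ATF4 peak or a CEBPG score of at least 100. Members, lists, motifs and alternatives were chosen with earlier results of these data known.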

Additional observations from a re-analysis of the deposited data

How the results depend on the processing

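The counts of cytosolic and of mitochondrial genes with a peak of each factor, and of genes with overlapping peaks, were repeated with windows of 0 kb, 1 kb and 20 kb, with score minimums of 50 and 100, with peaks kept only for the nearest gene, with peak centres within 1 kb of a start or end. Other overlap rules were run for the overlapping peaks alone. The 15 cytosolic genes with a CEBPG peak became 12 to 16 under these. The 3 mitochondrial genes became 8 within 20 kb, where 43.7% of all genes had a CEBPG peak, 1 at scores of 100 or more and 0 with centres within 1 kb. The 5 cytosolic genes with an ATF4 peak, and the 5 with overlapping peaks, each became 3 at scores of 100 or more (Aars and Gars were lost), and overlap of 50% of both peaks left 1 (Iars), since the ATF4 peaks are narrower than the CEBPG peaks around them. The mitochondrial ATF4 count was 0 under all of these settings. At 16 genes this is not read as a lack, since 4.94% of all genes had an ATF4 peak within 5 kb. Counting the composite letters only in the 250 bases before the start, an alternative chosen after seeing the data, left 2 cytosolic genes in place of 4, because the sites of Iars and Yars lie after the start, and 0 mitochondrial genes. No paired analysis was possible because there was 1 library per antibody, and for the same reason no library could be left out. Depth is unknown and the lists hold only peaks above the authors' threshold, so a missing peak does not show that a factor was not bound.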
